A study of Homo sapiens with 8 samples.

Results

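The messages followed here encode 10 proteins of the desmosome and the adherens junction, the spot-like and belt-like contacts that fasten neighbouring cells to each other. They were the rows of the deposited table, out of 20323 genes, whose symbol was PKP1, PKP2, PKP3, DSP, JUP, DSG2, DSC2, CTNNB1, CTNNA1 or CTNND1, and each symbol matched 1 gene. Expression was measured by sequencing polyadenylated RNA from H2452, an established human cell line labelled as pleural biphasic mesothelioma, of wild-type genotype. In the treated group, cells received deoxypodophyllotoxin (DPT) at 20 nM for 48 h. This lignan from plants is known to bind tubulin and stop microtubules from forming. In the control group, cells received DMSO alone for the same time, and each group had 4 libraries. Both groups grew in medium with fetal bovine serum. The series design calls the libraries biological replicates of this single line, and the labels give no culture day. The design names a single comparison, DPT against DMSO. In bulk RNA of this kind, fewer cells with a message and less of it per cell cannot be told apart.

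In a desmosome, the transmembrane cadherins of the desmoglein (DSG) and desmocollin (DSC) families bind those of the next cell. Inside the cell, plakoglobin (JUP) and the plakophilins (PKP) hold the cadherin tails, and desmoplakin (DSP) ties the complex to keratin or vimentin filaments. In an adherens junction, a classical cadherin binds β-catenin (CTNNB1) and p120-catenin (CTNND1), and α-catenin (CTNNA1) links β-catenin to actin. Plakoglobin is a close relative of β-catenin and can take its place in the adherens junction, whereas β-catenin also acts in the nucleus as the effector of Wnt signalling. Mesothelial cells form a sheet with both kinds of contact, and bundles of keratin and vimentin run through them.

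Library totals were 14964432 to 17205391 counts. DPT replicate 2 and DMSO replicate 3 separated from the remaining libraries along the first principal component of log2 CPM (counts per library total, scaled by TMM), with scores of 29.26 and 40.76. Among the other 6, DPT libraries scored -25.6 to -19.13 and DMSO libraries -1.3 to -1.02, so this component also separated the treatments there. Results are given from all 8 libraries. Where they differ, a fit with a model term for DPT replicate 2 and DMSO replicate 3 (called the pair) is added. Fits of the other 6 libraries alone are also given. The pair was chosen from these data, so p-values from these added fits do not allow for that choice and are descriptions. The labelled cell type was checked on 12 mesothelial markers, of which 9 exceeded 1 FPKM (fragments per length of transcript and depth of library) in some library. They included MSLN, CALB2, WT1, KRT8 and KRT18, while ITLN1 had no count in any library. The summed level of these markers was 1290 to 2100 FPKM in DPT libraries and 1960 to 2870 FPKM in DMSO libraries. This sum mostly reflects keratins. KRT8, KRT18 and KRT7 averaged 707.2, 534.8 and 260.3 FPKM in DPT libraries and 989.2, 816.5 and 359.5 FPKM in DMSO libraries. MSLN, CALB2 and WT1 averaged 6.735, 10.59 and 5.792 FPKM in DPT libraries and 7.967, 7.076 and 4.842 FPKM in DMSO libraries. Of 12 leukocyte markers, 2 (CD14 and CD68) exceeded 1 FPKM, MS4A1 had no counts, and the sums were 61.3 to 99.6 FPKM in DPT libraries and 60.7 to 92 FPKM in DMSO libraries. Of 10 endothelial markers, 4 exceeded 1 FPKM (EGFL7, TIE1, ROBO4 and PECAM1), and their sums were 24.3 to 35 FPKM in DPT libraries and 21.8 to 30 FPKM in DMSO libraries. Of 6 endothelial markers tested, 3 rose, namely ROBO4 (1.54 on the log2 scale, edgeR adjusted p = 0.00879), TIE1 and KDR, the last of which was named after its values were seen. TIE1 and KDR were called in the fits without DPT replicate 2 or DMSO replicate 3 and lost without any 1 of the other libraries (edgeR adjusted p of 0.0728 to 0.0955 for TIE1 and 0.0555 to 0.0694 for KDR). Of 6 fibroblast markers tested, 3 fell (COL1A2, COL3A1 and PDGFRB) with a median of -1.08. Allowing for the pair, 0 fibroblast markers were higher and 6 lower, and 4 endothelial markers were higher and 0 lower. Over all tested genes, that fit called 16.9% higher and 17.0% lower, and the fit without the term called 5.68% and 5.29%. Of 10 fibroblast markers, 6 exceeded 1 FPKM, DCN and LUM had no counts, and the sums were 55.2 to 79.9 FPKM in DPT libraries and 111 to 141 FPKM in DMSO libraries. The part of these marker shifts in the junction results was not tested.

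Of the 10 genes, 8 had enough counts to be tested. Of these, PKP2 fell by 1.0 and JUP by 0.41 on the log2 scale, 0 rose and 6 did not pass the test, which was edgeR's quasi-likelihood test at a Benjamini-Hochberg adjusted p under 0.05 over all 12648 tested genes. Over all tested genes, 11.0% were called, with 5.68% higher and 5.29% lower in DPT. The median log2 fold change was 0.02 over the 8 genes, in a range of -1.0 to 0.32, and 0 over all tested genes. In 4 of the 8 genes the DPT and DMSO libraries did not overlap in CPM, with PKP2, JUP and CTNND1 below and CTNNA1 above in DPT. Over all tested genes 18.2% did not overlap, 9.50% with DPT above and 8.73% with DPT below.

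When the fit held a term for the pair, DSG2 was also called higher and CTNND1 lower, giving 1 higher and 3 lower among the 8 genes, and 34.0% of all tested genes were called (16.9% higher, 17.0% lower). In the other 6 libraries DSP rose too, giving 2 higher and 3 lower, and 34.1% of the 12697 genes tested there were called (17.0% higher, 17.1% lower). The share of called genes was thus larger over the whole table as well as among the junction genes once the pair was allowed for. With 8 genes, and with the pair chosen from these data, these counts describe the set and are not a test of it.

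**Figure D1:**
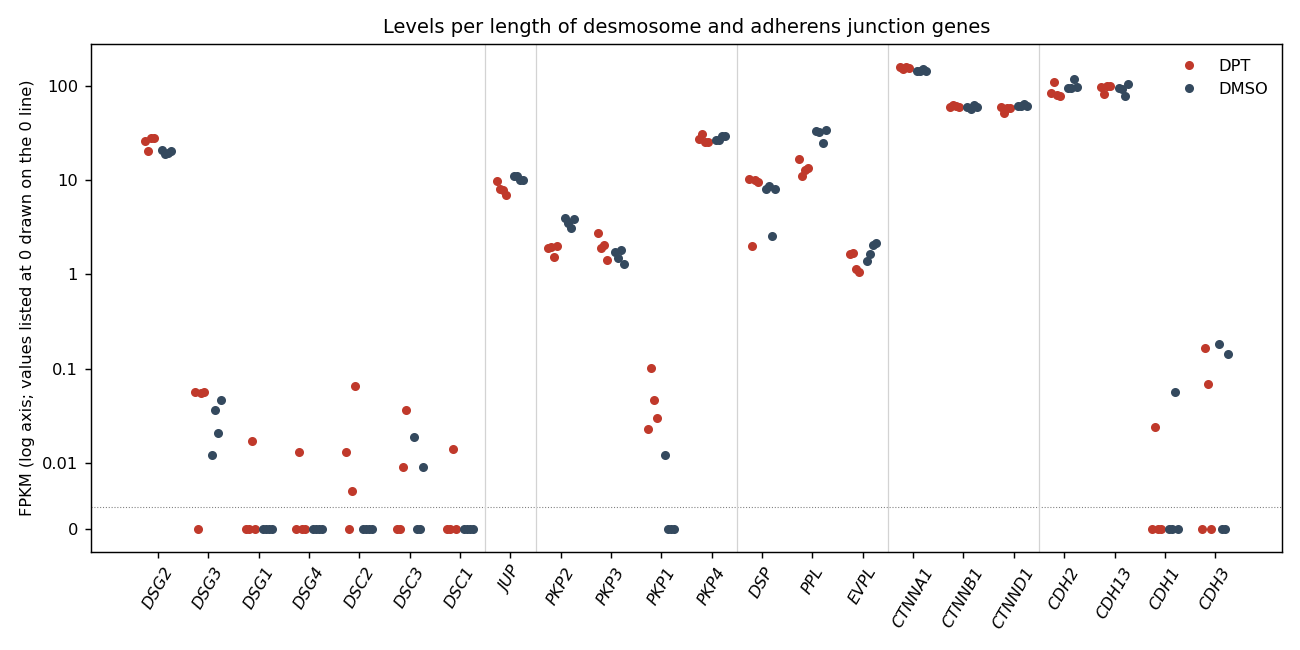
FPKM of desmosomal cadherins, plaque proteins, plakins, catenins and classical cadherins on a log axis, with 1 point per library, DPT left of DMSO, and values listed at 0 drawn on the line marked 0. CTNNA1 stands above 140 FPKM in every library, DSG2 is the only desmosomal cadherin above 1 FPKM, and DSC2 is listed at 0 in all 4 DMSO libraries.

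Per length, the catenins of the adherens junction were the most abundant of the 10 messages. CTNNA1 averaged 154 ± 3.67 FPKM in DPT and 144.2 ± 2.59 FPKM in DMSO (SD, n = 4 each, as for the levels that follow). CTNNB1 averaged 60.6 ± 1.52 FPKM in DPT and 59 ± 2.47 FPKM in DMSO, and CTNND1 averaged 56.3 ± 3.56 FPKM in DPT and 61.2 ± 1.32 FPKM in DMSO. The ranges of these last 2 genes overlapped within each group. Library by library, every DMSO library held more CTNND1 than CTNNB1 per length. DPT replicates 2, 3 and 4 held less CTNND1 than CTNNB1, and DPT replicate 1 held nearly equal levels (59.264 and 59.178 FPKM). DSG2 followed with 25.4 ± 3.5 FPKM in DPT and 19.7 ± 0.931 FPKM in DMSO. JUP had 8.14 ± 1.22 FPKM in DPT and 10.5 ± 0.68 FPKM in DMSO, and DSP had 7.88 ± 3.92 FPKM in DPT and 6.78 ± 2.83 FPKM in DMSO. JUP and DSP overlapped in DPT, whereas in DMSO every library held more JUP than DSP per length. PKP2 and PKP3 were near 1 to 4 FPKM, and PKP1 and DSC2 stayed at or below 0.102 FPKM in every library.

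The plakophilins are armadillo-repeat proteins of the desmosomal plaque, and PKP2 is the member found in simple epithelia and in the heart. PKP2 (ENSG00000057294, chromosome 12, 32790745 to 32896840 on the minus strand of GRCh38) measured 7.59, 7.79, 5.44 and 7.97 CPM in DPT replicates 1 to 4, against 15.2, 14.2, 12.9 and 15.4 CPM in DMSO replicates 1 to 4. Every DPT library lay below every DMSO library. The mean was 7.20 ± 1.18 CPM in DPT and 14.4 ± 1.14 CPM in DMSO, a log2 fold change of -1.0 (SE 0.138, 95% interval -1.31 to -0.69, adjusted p = 0.00295 by edgeR's quasi-likelihood test). The fall held in all 8 fits that left out 1 library, with log2 fold changes of -1.06 to -0.89 and adjusted p of 0.00203 to 0.0150. Within the pair, DPT replicate 2 lay 0.73 below DMSO replicate 3 on the log2 scale, and among the other libraries the DPT mean lay 1.11 below the DMSO mean.

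PKP3, which is found in most desmosomes of stratified and simple epithelia, had overlapping groups. It measured 4.65, 4.38, 4.66 and 2.70 CPM in DPT replicates 1 to 4, against 3.79, 3.73, 4.32 and 3.36 CPM in DMSO replicates 1 to 4. DPT replicate 4 was the lowest of all 8 libraries. The log2 fold change was 0.11 (SE 0.205, 95% interval -0.35 to 0.57, edgeR adjusted p = 0.794), and these 44 to 78 counts per library leave the 95% interval open to a change in either direction. PKP1, the plakophilin of the upper layers of stratified epithelia, had 2, 9, 4 and 2 counts in DPT replicates 1 to 4 and 1, 0, 0 and 0 counts in DMSO replicates 1 to 4. That is 17 counts in DPT and 1 count in DMSO, a ratio of 16.4 after scaling to library totals, with an exact 95% interval of 2.56 to 684 that covers counting error only. PKP1 was too sparse for the main test, and without the filter on low counts its adjusted p was 0.0831 by edgeR.

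PKP3 and PKP2 were also set against each other. Per length, the ratio of PKP3 to PKP2 was 1.45, 0.964, 1.32 and 0.713 in DPT replicates 1 to 4 and 0.438, 0.425, 0.582 and 0.339 in DMSO replicates 1 to 4. Its mean was 1.11 ± 0.336 in DPT and 0.446 ± 0.101 in DMSO (SD, n = 4 each), and the groups did not overlap. From CPM, which leaves gene length out, the ratio was 0.338 to 0.857 in DPT and 0.218 to 0.335 in DMSO, so the groups were separated by a narrow margin. These ratios describe the libraries and were not tested.

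Plakoglobin, which serves both kinds of junction, fell by a smaller amount. JUP (ENSG00000173801, chromosome 17, 41754604 to 41786931 on the minus strand) measured 26.2, 24.9, 19.9 and 20.2 CPM in DPT replicates 1 to 4, against 31.6, 32.1, 28.3 and 28.8 CPM in DMSO replicates 1 to 4. All 4 DPT libraries lay below all 4 DMSO libraries. The mean was 22.8 ± 3.23 CPM in DPT and 30.2 ± 1.95 CPM in DMSO, a log2 fold change of -0.41 (SE 0.107, 95% interval -0.65 to -0.17, edgeR adjusted p = 0.0397). The call stood close to the threshold. It was lost without DPT replicate 3 (edgeR adjusted p = 0.112), DPT replicate 4 (0.118), DMSO replicate 1 (0.111), DMSO replicate 2 (0.104) or DMSO replicate 4 (0.0805), and with library totals in place of TMM (0.0535), with log2 fold changes of -0.43 to -0.34 in these edgeR fits. Allowing for the pair, edgeR's adjusted p was 0.00335, and it was 0.00138 in the other 6 libraries (log2 fold change -0.48). Neither of these p-values allows for the choice of the pair from these data. The ratio of JUP to its relative CTNNB1 was 0.166, 0.129, 0.128 and 0.115 per length in DPT replicates 1 to 4, and 0.188, 0.199, 0.161 and 0.165 in DMSO replicates 1 to 4. DPT replicate 1 lay above the lowest DMSO libraries, so these ratios overlapped. From CPM, the ratio was 0.154, 0.14, 0.116 and 0.117 in DPT replicates 1 to 4 and 0.182, 0.197, 0.155 and 0.163 in DMSO replicates 1 to 4, and the groups did not overlap, by a narrow margin.

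**Figure D2:**
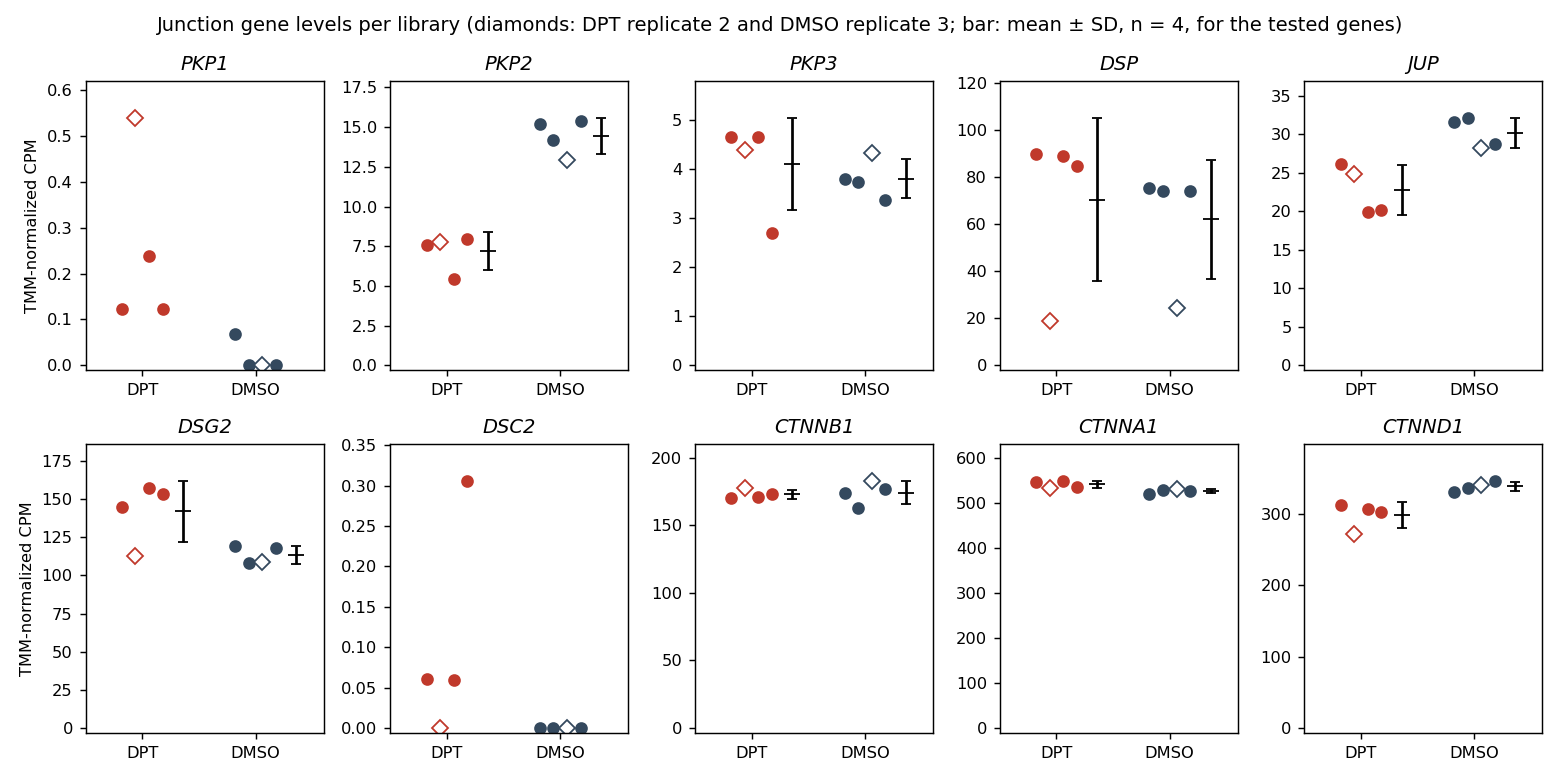
TMM-normalized CPM of the 10 genes, with 1 point per library, DPT left of DMSO, open diamonds for DPT replicate 2 and DMSO replicate 3, and bars at the mean ± SD (n = 4) of the 8 tested genes. PKP2 and JUP lie lower in every DPT library than in any DMSO library, and DSP is far lower in both diamonds than in the 6 other libraries.

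Desmoplakin, the plakin that anchors intermediate filaments, varied more between libraries than between treatments. DSP (ENSG00000096696, chromosome 6, 7541575 to 7586717 on the plus strand) measured 89.6, 18.6, 88.7 and 84.7 CPM in DPT replicates 1 to 4, against 75.5, 73.9, 24.2 and 74.2 CPM in DMSO replicates 1 to 4. The low values are those of DPT replicate 2 and DMSO replicate 3, the libraries that separated on the first principal component. Their difference from the other 6, within groups, was -1.93 in log2 CPM, and only 46 of the 12648 tested genes (0.364%) had a lower value of that contrast after a pseudocount of 0.5. The pair was itself found from these libraries, so this is a description. With all 8 libraries the log2 fold change was 0.19 (SE 0.475, 95% interval -0.88 to 1.25, edgeR adjusted p = 0.849), and it was -0.09 (adjusted p = 0.910) without DMSO replicate 3 and 0.50 (adjusted p = 0.302) without DPT replicate 2.

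Outside the pair, the 3 DPT libraries lay above the 3 DMSO libraries without overlap, and the log2 fold change was 0.23 (SE 0.051, edgeR adjusted p = 0.00178). That p does not allow for the choice of the libraries left out. The choice was made from these data, where DSP set those libraries apart strongly, so the value is a description. Within the pair the direction was opposite, with DPT replicate 2 lower than DMSO replicate 3 by 0.38 on the log2 scale. The fitted difference between these 2 effects was -0.62 on the log2 scale. It is given without a p, since the pair was defined from these data and holds 1 library of each group. With the term for the pair and a shared DPT effect, the log2 fold change of DSP was 0.12 (edgeR adjusted p = 0.237).

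The desmosomal cadherins were represented by DSG2, the desmoglein of simple epithelia, mesothelium and heart. DSG2 (ENSG00000046604, chromosome 18, 31498043 to 31549008 on the plus strand) measured 145, 113, 157 and 153 CPM in DPT replicates 1 to 4, against 119, 108, 109 and 118 CPM in DMSO replicates 1 to 4. DPT replicates 1, 3 and 4 lay above all DMSO libraries, and DPT replicate 2 lay among them. The mean was 142.2 ± 19.9 CPM in DPT and 113.6 ± 5.66 CPM in DMSO, a log2 fold change of 0.32 (SE 0.101, 95% interval 0.10 to 0.55) that did not pass the test (edgeR adjusted p = 0.0710). It passed with DESeq2 (adjusted p = 0.0369) and with library totals in place of TMM (0.37, edgeR adjusted p = 0.0454). Without DPT replicate 2 it was 0.42 (edgeR adjusted p = 0.00236), allowing for the pair 0.31 (0.000666) and in the other 6 libraries 0.40 (1.05e-05). The last 2 of these p-values do not allow for the choice of the pair from these data. DSG2 did not pass in the other 11 of 16 alternatives, among them voom (adjusted p = 0.0849) and the replicate block (edgeR adjusted p = 0.130). Of the 8 fits without 1 library, 1 called it. DPT replicate 2 was above DMSO replicate 3 by 0.05 in log2 CPM.

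DSC2, the desmocollin that is usually found with DSG2, had 1, 0, 1 and 5 counts in DPT replicates 1 to 4 and no counts in any DMSO library. A count of 0 allows up to 3 counts per library, or 0.174 to 0.2 CPM, and 3 of the 4 DPT libraries were under that limit, so no fold is given. DSG2 and DSC2 stand 395.5 kb apart in a cluster of 7 desmosomal cadherin genes that spans 559.0 kb of chromosome 18. In the order DSC3, DSC2, DSC1, DSG1, DSG4, DSG3 and DSG2, the summed counts were 5, 7, 1, 2, 1, 15 and 9388 in the 4 DPT libraries. In the 4 DMSO libraries they were 3, 0, 0, 0, 0, 10 and 7015. DSG2, at the end of the cluster, had 18.8 to 28.1 FPKM, and the other 6 genes had at most 0.066 FPKM in any library.

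Promoters of 4 desmosomal genes are printed because they hold the E-box searched for, in genes that range from DSG2 at over 100 CPM to DSC2 near 0. Each runs 5′ to 3′ on the gene's own strand from 250 bases before to 50 bases after a RefSeq start on GRCh38.p14, and capitals mark the letters CACCTG or their reverse complement, the E-box that the repressors ZEB1, ZEB2, SNAI1 and SNAI2 are known to bind.
DSP (chr6:7541421-7541720, + strand): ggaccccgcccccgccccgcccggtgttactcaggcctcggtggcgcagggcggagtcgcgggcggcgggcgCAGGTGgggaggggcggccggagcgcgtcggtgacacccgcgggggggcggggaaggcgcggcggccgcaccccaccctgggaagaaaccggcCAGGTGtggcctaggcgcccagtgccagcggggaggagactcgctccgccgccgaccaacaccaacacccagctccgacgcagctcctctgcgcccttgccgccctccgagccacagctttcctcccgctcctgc
JUP (chr17:41785927-41786226, - strand): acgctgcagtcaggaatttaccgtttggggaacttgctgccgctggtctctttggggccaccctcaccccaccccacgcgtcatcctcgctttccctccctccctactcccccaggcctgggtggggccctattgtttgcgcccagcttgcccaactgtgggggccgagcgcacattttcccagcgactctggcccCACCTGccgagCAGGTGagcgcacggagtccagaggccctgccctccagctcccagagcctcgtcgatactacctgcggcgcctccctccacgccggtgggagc
DSC2 (chr18:31102372-31102671, - strand): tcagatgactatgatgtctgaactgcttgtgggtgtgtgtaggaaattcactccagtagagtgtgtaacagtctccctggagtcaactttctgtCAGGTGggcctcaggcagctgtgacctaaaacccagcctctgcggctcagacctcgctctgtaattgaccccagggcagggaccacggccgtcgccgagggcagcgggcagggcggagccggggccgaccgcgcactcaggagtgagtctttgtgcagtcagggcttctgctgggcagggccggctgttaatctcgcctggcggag
DSG2 (chr18:31497927-31498226, + strand): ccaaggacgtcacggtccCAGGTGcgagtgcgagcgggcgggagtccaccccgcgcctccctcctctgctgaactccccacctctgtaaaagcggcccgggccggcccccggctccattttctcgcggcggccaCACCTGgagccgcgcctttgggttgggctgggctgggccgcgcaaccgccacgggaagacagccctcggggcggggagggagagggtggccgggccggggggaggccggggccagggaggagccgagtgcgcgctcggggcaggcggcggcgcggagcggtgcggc

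The set of RefSeq promoters used here held 7 of the 10 genes in 12 windows. PKP2, PKP3 and CTNND1 were not in that set, so their promoters were not searched. CACCTG, read on both strands, occurred in the windows of DSP, JUP, DSC2 and DSG2, that is in 4 of the 12 windows (33.3%), against 20.6% of all 35116 promoter windows of 300 bases. With 12 windows, some of which overlap, this is a description. In DSG2 the matches began 232 and 116 bases before the start, in DSP 178 and 85 bases, in the downstream start of JUP 54 and 43 bases and in DSC2 156 bases before it. The other JUP and DSC2 windows, and those of PKP1, CTNNB1 and CTNNA1, did not hold these letters. The E-box letters stand in the windows of both DSC2, listed at or near 0, and DSG2, the most abundant per length of the 7 desmosomal genes among the 10. The windows also held CG dinucleotides, 36 in DSG2, 37 in DSP, 19 in JUP and 15 in DSC2, with a median of 14 over all promoters.

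A further 5 motifs, read on both strands, made 6 searched in all. TGANTCA, the AP-1 site, stood in no window of the 7 genes and in 7.7% of all promoters. AACNNGTT (3.5% of all) occurred in 2 windows of CTNNA1 that overlap and may share 1 site. AACCNGTT (1.7%), a grainyhead-type site contained in AACNNGTT, stood in none. CCGGTT (7.2%), which can overlap the grainyhead-type site, occurred in DSP, and TTCCGG (17.2%), an ETS-type site, in 1 window of CTNNA1. A match describes the letters in the window and not binding.

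**Figure D3:**
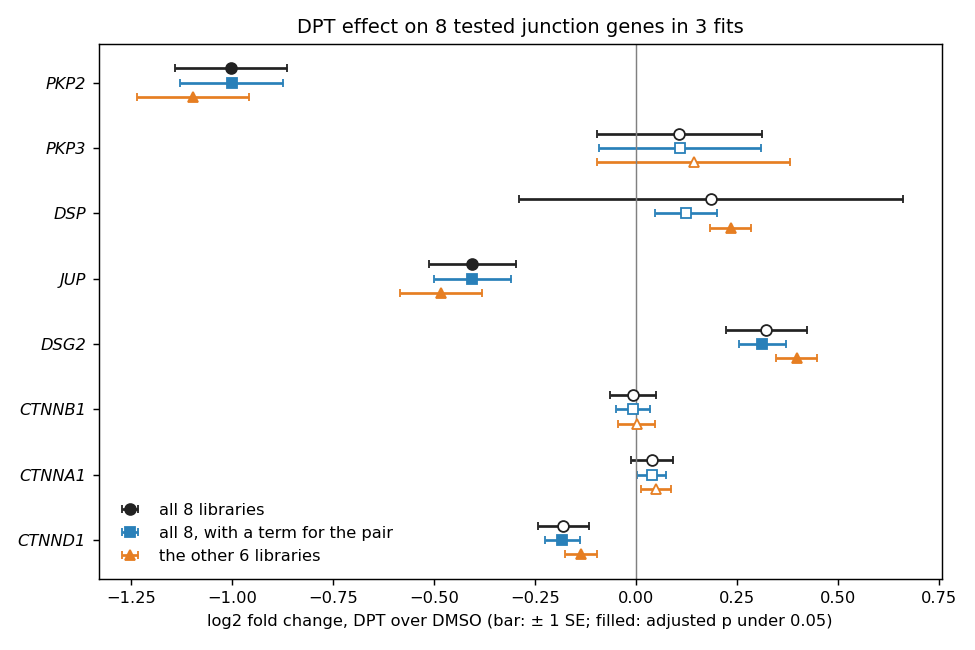
Log2 fold change of DPT over DMSO with ± 1 SE for the 8 tested genes, from all 8 libraries, from all 8 with a term for DPT replicate 2 and DMSO replicate 3, and from the other 6 libraries, with filled symbols at an adjusted p under 0.05. PKP2 (-1.10 to -1.0) and JUP (-0.48 to -0.41) are filled in all 3 fits, DSG2 and CTNND1 in the last 2, and DSP, whose SE is 0.475 in the first fit, only in the 6 libraries.

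Of the 3 catenins of the adherens junction, none passed the main test, and their log2 fold changes lay between -0.18 and 0.04. CTNNB1 (ENSG00000168036, chromosome 3, 41194741 to 41260096 on the plus strand) measured 170, 178, 171 and 173 CPM in DPT replicates 1 to 4, against 174, 163, 183 and 177 CPM in DMSO replicates 1 to 4. The groups overlapped fully, and the log2 fold change was -0.01 with a 95% interval of -0.14 to 0.12 (SE 0.0576, edgeR adjusted p = 0.954). CTNNA1 (ENSG00000044115, chromosome 5, 138610967 to 138935034 on the plus strand) measured 547, 533, 549 and 535 CPM in DPT replicates 1 to 4, against 519, 528, 532 and 527 CPM in DMSO replicates 1 to 4. Every DPT library lay above every DMSO library by a small margin, and the log2 fold change of 0.04 (SE 0.0517, 95% interval -0.08 to 0.15) did not pass the test (edgeR adjusted p = 0.692). These messages had 2401 to 9176 counts per library, and the intervals leave out changes beyond 0.15 on the log2 scale.

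CTNND1 encodes p120-catenin, which holds classical cadherins at the cell surface. CTNND1 (ENSG00000198561, chromosome 11, 57753243 to 57819546 on the plus strand) measured 312, 272, 307 and 303 CPM in DPT replicates 1 to 4, against 331, 336, 340 and 346 CPM in DMSO replicates 1 to 4. The groups did not overlap, and DPT replicate 2 was the lowest library. With all 8 libraries the log2 fold change of -0.18 (SE 0.0627, 95% interval -0.32 to -0.04) did not pass the test (edgeR adjusted p = 0.0995). It passed in 3 of 16 alternatives, with DESeq2 (adjusted p = 0.0336), with the pair term (-0.18, edgeR adjusted p = 0.00375) and in the other 6 libraries (-0.14, edgeR adjusted p = 0.0144). It did not pass in the other 13, among them voom (adjusted p = 0.0832) and the replicate block (edgeR adjusted p = 0.242). These 13 included all 8 fits without 1 library (edgeR adjusted p of 0.103 to 0.211). The p-values with the pair term and in the other 6 libraries do not allow for the choice of the pair from these data. CTNND1 was the 1 gene of the 10 whose deposited counts were not whole in any library, as happens where reads are divided between entries. In GENCODE 29 it overlaps the read-through gene TMX2-CTNND1 by 38344 bases on the same strand. The table also holds an entry labelled TMX2 (ENSG00000288534) with 0, 150, 173 and 154 estimated counts in DPT replicates 1 to 4 and 334, 131, 198 and 135 in DMSO replicates 1 to 4. Whether these reads were shared with CTNND1 was not tested, and its value is uncertain to that extent.

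The per-length values rest on lengths that the authors' software took for each library. The length implied by count, FPKM and library total differed by 1.64% to 4.07% between the highest and the lowest library for DSG2, CTNNB1, CTNNA1 and CTNND1. It differed by 11.2% for DSP, 14% for PKP2, 19.7% for JUP and 49.4% for PKP3, where it was 1706, 2356, 2344 and 1919 bases in DPT replicates 1 to 4 and 2164, 2470, 2369 and 2549 bases in DMSO replicates 1 to 4. Such a difference can arise where another mix of transcripts is assigned, which was not tested, and for PKP3 it rests on 44 to 78 counts per library. The tests used counts that were not divided by this length, and whether a shift in it altered the count-based fold changes was not tested.

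Over the 8 libraries, log2 levels of PKP2 followed those of JUP (Pearson r = 0.88) and ran against those of CTNNA1 (r = -0.87) and DSG2 (r = -0.77), while DSP and CTNNB1 ran against each other (r = -0.68). These values come from 2 groups of 4 libraries and 1 deviating library in each, so they describe those contrasts and carry no p. The tested genes whose log2 CPM was most like that of PKP2 over the 8 libraries were ASAP3 (r = 0.987), MRE11 (0.985) and SULF1 (0.983).

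**Figure D4:**
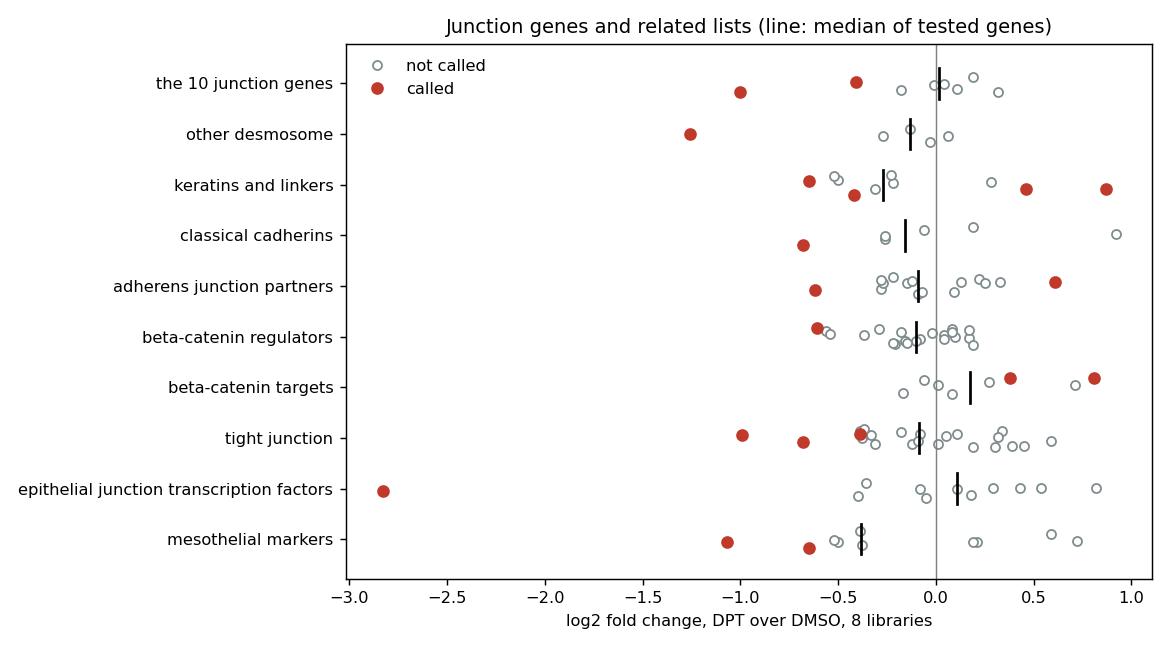
Log2 fold change of DPT over DMSO from all 8 libraries for the tested genes of 10 lists, with called genes filled and a vertical line at each list's median. The medians lie between -0.38 for the mesothelial markers and 0.17 for the β-catenin targets, and ELF3 at -2.83 and PPL at -1.26 lie farthest to the left.

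Other parts of the desmosome included PPL, which encodes periplakin, a plakin that links desmosomes to filaments beside desmoplakin. PPL measured 104, 68.3, 77.6 and 82.5 CPM in DPT replicates 1 to 4, against 212, 207, 156 and 219 CPM in DMSO replicates 1 to 4. It fell 2.39-fold without overlap (log2 fold change -1.26, SE 0.143, edgeR adjusted p = 0.00130). This was the 1 called gene of 5 tested on a list of 10 other desmosomal genes, whose median log2 fold change was -0.13. PKP4, a relative of the plakophilins, stood at 27.1 ± 2.5 FPKM in DPT and 27.9 ± 1.55 FPKM in DMSO (SD, n = 4 each), far above PKP2 and PKP3, and was not called (-0.13, edgeR adjusted p = 0.302), but passed with the pair term (adjusted p = 0.0367) and without DPT replicate 2 (-0.19, 0.0460). It was named after its level was seen.

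Among 10 tested keratins and linker genes, to which desmoplakin binds, 2 rose and 2 fell. KRT18, a keratin of simple epithelia, averaged 746.2 ± 117 CPM in DPT and 1171 ± 186 CPM in DMSO (log2 fold change -0.65, edgeR adjusted p = 0.0149). KRT80 fell as well (-0.42, edgeR adjusted p = 0.0428). VIM, the filament protein of mesenchymal cells, averaged 7278 ± 537 CPM in DPT and 5277 ± 761 CPM in DMSO (0.46, edgeR adjusted p = 0.0182), and KRT15 rose by 0.87 (adjusted p = 0.0271). The median of the list was -0.27. Each of these calls was lost in some fits that left out 1 library, but the direction was kept in all of them. The log2 fold change was 0.41 to 0.57 for VIM and -0.76 to -0.53 for KRT18. All of these calls held without DPT replicate 2 or without DMSO replicate 3. Without any 1 of the other libraries, fewer genes were called over the whole table (332 to 459 higher and 311 to 434 lower, against 718 and 669). KRT18 was not called without DPT replicate 3 or 4 (edgeR adjusted p of 0.0519 and 0.0561), VIM without DMSO replicate 1, 2 or 4 (0.0590 to 0.0653), KRT15 without DPT replicate 3 or 4 or DMSO replicate 1, 2 or 4 (0.0629 to 0.0837) and KRT80 without any 1 library other than DPT replicate 2 and DMSO replicate 3 (0.0879 to 0.125). Allowing for the pair, 2 were higher and 6 lower, in a fit that called 34.0% of all tested genes.

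A list of 19 classical cadherins and close relatives, most of which have tails that bind catenins, held 6 genes with enough counts to be tested. CDH24 fell (13.5 ± 3.10 CPM in DPT and 21.7 ± 2.48 CPM in DMSO, log2 fold change -0.68, edgeR adjusted p = 0.0247), 0 rose and the median was -0.16. Its call was lost without any 1 of DPT replicates 1, 3 and 4 and DMSO replicates 1 and 2 (edgeR adjusted p of 0.0579 to 0.0796). Allowing for the pair, 2 genes of the list were higher and 3 lower, where 34.0% of all tested genes were called. The abundant members, named after their levels were seen, were CDH2 (N-cadherin), at 86.8 ± 14.4 FPKM in DPT and 100.6 ± 10.4 FPKM in DMSO, and CDH13, which lacks the tail that binds catenins, at 93.8 ± 7.77 FPKM in DPT and 91.7 ± 10.9 FPKM in DMSO. CDH2 had a log2 fold change of -0.26 (edgeR adjusted p = 0.206), which passed with the pair term (-0.27, 0.000237) and without DPT replicate 2 (-0.39, 0.0118), and CDH13 of -0.06 (adjusted p = 0.744). CDH1 (E-cadherin) had 1 count in the 4 DPT libraries and 4 counts in the 4 DMSO libraries.

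Of 15 tested partners of the adherens junction, NECTIN1, an immunoglobulin-type adhesion receptor, rose by 0.61 (13.8 ± 3.21 CPM in DPT and 9.04 ± 0.759 CPM in DMSO, edgeR adjusted p = 0.0434) and AJUBA fell. AJUBA, a scaffold that is recruited to α-catenin, measured 66.2, 69.8, 65.1 and 65.3 CPM in DPT replicates 1 to 4, against 106, 103, 97.9 and 102 CPM in DMSO replicates 1 to 4 (log2 fold change -0.62, edgeR adjusted p = 0.000483). The median was -0.09, and allowing for the pair 4 were higher and 5 lower (34.0% of all tested genes were called in that fit). The call of NECTIN1 was lost without any 1 of DPT replicates 3 and 4 and DMSO replicates 1, 2 and 4 (edgeR adjusted p of 0.0708 to 0.116). It was also lost with voom (adjusted p = 0.0607), and in edgeR without the filter (0.0511) and with the replicate block (0.125). Of 22 tested tight junction genes, 0 rose and 3 fell, with a median of -0.09. Allowing for the pair 2 were higher and 7 lower, beside the same 34.0% of all tested genes. The 3 called were CLDN11 (208.5 ± 18.8 CPM in DPT and 333.2 ± 41.2 CPM in DMSO, -0.68, edgeR adjusted p = 0.00444), PATJ (-0.39, adjusted p = 0.0259) and PARD6B (-0.99, adjusted p = 0.0450), the last named after its values were seen. PATJ and PARD6B were each lost in 6 of the 8 fits that left out 1 library: PATJ without any but DPT replicate 2 or DMSO replicate 3 (0.0573 to 0.0699), and PARD6B without any but DPT replicate 1 or DMSO replicate 3 (0.0572 to 0.127).

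Genes around β-catenin were read from lists of its regulators and targets. Of 21 tested regulators and partners, 0 rose, and TCF7L2, a DNA-binding partner of β-catenin, fell to 34.9, 31.8, 32.4 and 34.1 CPM in DPT replicates 1 to 4, against 52.2, 53.7, 43 and 55.3 CPM in DMSO replicates 1 to 4 (log2 fold change -0.61, edgeR adjusted p = 0.00367). The median was -0.10, and allowing for the pair 2 were higher and 5 lower (34.0% of all tested genes were called in that fit). Of 8 tested targets, 2 rose and 0 fell, with a median of 0.17. Allowing for the pair 4 were higher and 0 lower, against 16.9% higher and 17.0% lower over all tested genes. DKK1, a secreted Wnt antagonist, averaged 109.7 ± 6.51 CPM in DPT and 62.5 ± 4.07 CPM in DMSO (0.81, edgeR adjusted p = 0.000432), and CCND1, which encodes cyclin D1, averaged 541.8 ± 26.1 CPM in DPT and 416.5 ± 51.6 CPM in DMSO (0.38, adjusted p = 0.0308). CCND1 lost its call without any 1 of DPT replicates 1, 3 and 4 and DMSO replicates 1 and 4 (edgeR adjusted p of 0.0673 to 0.0836). AXIN2 and LEF1, targets often used to read Wnt activity and named after their values were seen, were too low for the test over all 8 libraries. AXIN2 had 2 to 11 counts in a library. LEF1 had 12, 2, 23 and 11 counts in DPT replicates 1 to 4 and 3, 1, 3 and 1 counts in DMSO replicates 1 to 4. The other 6 libraries gave a log2 fold change of 2.97, without a p since LEF1 entered that test only through its DPT counts. Within the pair, DPT replicate 2 lay 0.55 below DMSO replicate 3 in log2 CPM, on 2 and 3 counts.

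Of 11 tested transcription factors that control epithelial junction genes, 0 rose and ELF3, an epithelial ETS factor, fell 7.13-fold from a low level. ELF3 measured 0.428, 0.42, 0.239 and 0.552 CPM in DPT replicates 1 to 4, against 3.18, 3.66, 1.81 and 3.23 CPM in DMSO replicates 1 to 4 (log2 fold change -2.83, SE 0.334). ELF3 passed the filter on low counts through its DMSO libraries alone, so no p is given and its call is a description. The median of the list was 0.11. ZEB1, ZEB2 and SNAI2, repressors that bind the E-box printed above and were named after their values were seen, had log2 fold changes of 0.18, 0.11 and 0.82 and did not pass the test (edgeR adjusted p of 0.266, 0.651 and 0.143). Allowing for the pair, ZEB1 (0.19, adjusted p = 0.00592) and SNAI2 (0.89, adjusted p = 0.000138) were called higher, as was SNAI2 without DMSO replicate 3 (1.29, 0.00545). In the other 6 libraries ZEB2 (0.16, adjusted p = 0.0159) and SNAI1 (0.60, adjusted p = 0.0456) were called higher too, whereas SNAI1 had 0.29 (adjusted p = 0.551) over all 8. ZEB1 averaged 29.3 ± 2.95 FPKM in DPT and 24.6 ± 3.39 FPKM in DMSO, and SNAI2 averaged 5.54 ± 1.82 FPKM in DPT and 3.05 ± 1.67 FPKM in DMSO. Of the 11, 3 were higher and 1 lower allowing for the pair, and 5 were higher and 1 lower in the other 6 libraries, the fifth being KLF5 (0.67), which like SNAI1 was named after its values were seen. Over all tested genes, these fits called 34.0% and 34.1%. Of 10 tested mesothelial markers, 0 rose and 2 fell, KRT18 and UPK3B, with a median of -0.38, and UPK3B was not called without DPT replicate 1 or 3 or DMSO replicate 1 or 4 (edgeR adjusted p of 0.0649 to 0.0841). Allowing for the pair, 6 of these markers were lower and 2 higher, CALB2 (0.61, edgeR adjusted p = 0.00243) and BNC1 (0.19, edgeR adjusted p = 0.00528). That fit called 34.0% of all tested genes. The p-values of this paragraph from the pair term and from the other 6 libraries do not allow for the choice of the pair.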

How the data were processed

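Polyadenylated RNA of 8 libraries was sequenced, 4 with DPT and 4 with DMSO. The authors deposited 1 table with an expected count (10.8% not whole, as estimated counts can be) and an FPKM value per gene and library, per the file headers and the values. The submitters' processing notes list hg38 with fastp 0.18.0, StringTie 1.3.1, HISAT2, RSEM and DESeq2, in no stated role. Annotation release and strand setting: not given in the sources used here. Antisense or overlapping genes, such as DSG2-AS1 at DSG2, may therefore share reads with the 10 genes.

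Expected counts were rounded and tested with edgeR 4.0.16 in R 4.3.3 (TMM, filterByExpr defaults of 10 for the count and 15 for the total, quasi-likelihood test, treatment term only) and adjusted over all 12648 genes kept. FPKM was used for levels between genes and ratios, without tests. Alternatives were DESeq2 1.42.0, voom of limma 3.58.1, RLE factors, library totals, no filter, a replicate block, each library left out and, chosen after seeing the data, a term for DPT replicate 2 and DMSO replicate 3, the other 6 libraries, and a DPT effect of its own in that pair, printed without p. P-values measure the spread between these libraries.

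The 10 genes and all lists were chosen with earlier results of these data known. Named genes were the 10, up to 2 higher and 2 lower called genes of each related list with the smallest adjusted p, markers above 1 FPKM, and the 3 genes whose log2 CPM (pseudocount 0.5) was most like that of PKP2; others are said to be named after their values were seen. Lists count table entries, so a symbol carried by 2 entries counts as 2. Gene positions are from GENCODE on GRCh38 and promoters from RefSeq on GRCh38.p14.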

Additional observations from a re-analysis of the deposited data

Results flagged for a closer look

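In 4 of the 16 groups of 4 libraries examined (8 genes in 2 groups), 1 library lay far from the other 3, where chance alone marks about 1 group in 20. DSP was 18.6 CPM in DPT replicate 2, with the nearest DPT library at 84.7 CPM, and 24.2 CPM in DMSO replicate 3, with the nearest DMSO library at 73.9 CPM. PKP2 was 5.44 CPM in DPT replicate 3, with the nearest at 7.59 CPM, and PKP3 was 2.7 CPM in DPT replicate 4, with the nearest at 4.38 CPM. The DPT effect on DSP within the pair of DPT replicate 2 and DMSO replicate 3 differed from that in the other 6 libraries by -0.62 on the log2 scale, with DPT lower in the pair and higher in each of the other libraries. That pair was defined from these data and holds 1 library of each group, so no p is given.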

How the results depend on the processing

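Over all tested genes, 718 were higher and 669 lower in DPT, against 171 and 174 with a replicate block, 2140 and 2156 with the term for the pair, 2158 and 2169 in the other 6 libraries, 969 and 523 with library totals in place of TMM (which moves the median of all genes to 0.04), 971 and 958 with DESeq2, and 332 to 1183 and 311 to 1108 when 1 library was left out. Among the 8 junction genes (0 higher, 2 lower), 1 was higher with DESeq2, library totals and the pair term and 2 in the other 6 libraries; 3 were lower with DESeq2, the pair term and the 6 libraries and 1 with library totals and the replicate block; leaving out 1 library gave 0 to 1 higher and 1 to 2 lower. The replicate block ended the call of JUP (adjusted p = 0.0635) and kept that of PKP2. It also ended those of KRT18, KRT80, VIM, CDH24, NECTIN1, CCND1, PATJ, PARD6B, TIE1 and KDR (edgeR adjusted p of 0.075 to 0.125). With voom, NECTIN1, PARD6B, TIE1 and KDR lost their calls (voom adjusted p of 0.052 to 0.0742), as did KRT80 with library totals (edgeR adjusted p = 0.0551). Replicate numbers did not pair the libraries (correlations of deviations 0.2, -0.31, -0.4 and 0.21, none with its own number best), while DPT replicate 2 and DMSO replicate 3 correlated at 0.68. The cause of these shifts was not tested. The direction was reversed for DSP without DMSO replicate 3 (-0.09; range 0.5 at most), CTNNB1 with library totals (0.03), in the 6 libraries (0), without DPT replicate 1 (0) and without DMSO replicate 3 (0.01; range from -0.04), EGFL7 with library totals (0.01) and without DMSO replicate 4 (0.05; range from -0.12), and PECAM1 in the 6 libraries (-0.09) and without DMSO replicate 3 (-0.16; range to 0.35). PKP2, PPL, AJUBA, TCF7L2, DKK1, CLDN11 and ROBO4 kept direction and call in all 16 alternatives. ELF3 kept its direction in all of them. Counts of PKP1 and DSC2 limit any statement on them.

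List counts (higher, lower) moved within these ranges over all alternatives, leaving out 1 library included: other desmosomal genes 0 and 1 to 2, keratins and linkers 0 to 2 and 0 to 6, classical cadherins 0 to 2 and 0 to 3, adherens junction partners 0 to 4 and 1 to 5, β-catenin regulators 0 to 3 and 1 to 5, β-catenin targets 1 to 5 and 0, tight junction 0 to 3 and 1 to 7, epithelial junction transcription factors 0 to 5 and 1, mesothelial markers 0 to 2 and 0 to 6, leukocyte markers 0 to 1 and 0 to 1, endothelial markers 1 to 4 and 0, fibroblast markers 0 and 3 to 6.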
